A study of Capra hircus with 11 samples.

Results

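The miRNAs encoded at the proximal end of the imprinted DLK1-DIO3 region, around the genes MEG3 and RTL1, were followed in the omental fat of 11 lactating Alpine goats (Capra hircus) by small RNA sequencing. They were picked by a name rule, with any letter or arm, and with earlier results of these data known. The names were bta-miR-493, bta-miR-337, bta-miR-665, bta-miR-431, bta-miR-433, bta-miR-127, bta-miR-432, bta-miR-136 and bta-miR-370. The prefix marks bovine entries and is left out from here on. Of these 9, 8 had a listed name, 1 each, out of 637 names listed in all. miR-337 was not among them and is not analysed here. The 6 feed-deprived goats had been without feed for the last 48 h before slaughter, and the 5 control goats had eaten the standard hay and concentrate diet freely. All goats were at peak lactation, 48 ± 2 days after kidding at the start, had eaten the same diet for 2 weeks, and gave 1 library each. The comparison addresses how the miRNAs of a fat depot at peak lactation differ after a short fast.

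Genes of the DLK1-DIO3 region are imprinted: the protein-coding genes, among them DLK1 and RTL1, are read from the paternal chromosome, and the long non-coding RNA MEG3 and the miRNAs from the maternal one. DLK1, also called preadipocyte factor 1, is best known for holding back the formation of fat cells, and a mutation near it gives callipyge sheep their heavy hindquarters. In mice and sheep several of these miRNAs are cut from a transcript that runs antisense to RTL1, so that they match the RTL1 mRNA over their full length and can direct its cleavage. In the RefSeq goat gene table of assembly ARS1.2, 6 of the 9 genes were found, all on chromosome 21, in the order miR-493, miR-665, miR-433, miR-127, miR-432 and miR-136. The last 4 of these lay inside RTL1. miR-431, known in mouse and human to be cut from the same antisense transcript, and miR-370, known there to lie further downstream, were not in the table.

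The libraries held 16974441 to 25389788 recovered miRNA reads, 18281521 to 25389788 in feed-deprived goats and 16974441 to 22642536 in controls. Feed-deprived replicate 1 listed 8 names fewer than the others, miR-127 among them, so miR-127 was compared over 10 libraries, 5 of each group. Values are given as normalised reads, the deposited scale, on which 1 read was worth 0.607 to 1.33. The miRNAs linked to fat cells (miR-143, miR-103, miR-107 and miR-378) summed to 3504212 to 6396941 normalised reads in feed-deprived goats and 3918216 to 8390225 in controls, nearly all of it miR-143, which smooth muscle and other mesenchymal cells also hold. In a tissue sample, more cells of a type and more of a miRNA in each cell cannot be told apart.

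Of the 8 members, miR-431 alone passed the threshold. It rose 7.93-fold after feed deprivation on the log2(value + 1) scale, was scarce in every goat, and reached the level needed for testing through the feed-deprived goats only. miR-665 had a log2 fold change of 1.46 that missed the threshold, with all 6 feed-deprived goats above all controls. miR-127, by far the most abundant member, had a fold of 1.01 with a 95% interval of 0.732 to 1.38. In limma, with Benjamini-Hochberg adjusted p under 0.05, 1 of the 7 members listed in every library was called higher, beside 0.833% of the 360 miRNAs tested, and 0 were called lower, beside 0% of the 360. With miR-127 added, 1 of 8 was called higher beside 0.82% of 366 miRNAs. At an unadjusted p under 0.05 the members miR-431, miR-665, miR-370 and miR-493 had higher values, beside 8.33% of the 360. On the recovered reads edgeR also called miR-431 alone among the members, beside 0.833%, and DESeq2 called miR-431 and miR-665, beside 2.78%.

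Levels spanned a wide range. miR-127, reported in mouse to act on RTL1 and in human cells on the repressor BCL6, averaged 97608 ± 29254 normalised reads in feed-deprived goats and 96061 ± 21616 in controls (SD, n = 5 each). It ranked 23rd by mean among all 637 names and held 97.8% to 98.4% of the reads of the 8 members in feed-deprived goats and 98.0% to 99.2% in controls. miR-136 and miR-432 followed, and their order changed between goats: miR-136 was the higher of the 2 in 8 of 11 libraries. miR-665 and miR-493 came next. miR-665 was above miR-493 in all 6 feed-deprived goats but not in every control. miR-370, miR-433 and miR-431 made up the lowest places. In all 5 controls miR-431 was the lowest of the 7, whereas in feed-deprived goats it took place 5 at best and 7 at worst. These levels rank miRNAs within this library protocol only, since adapter ligation favours some small RNAs over others.

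**Figure D1:**
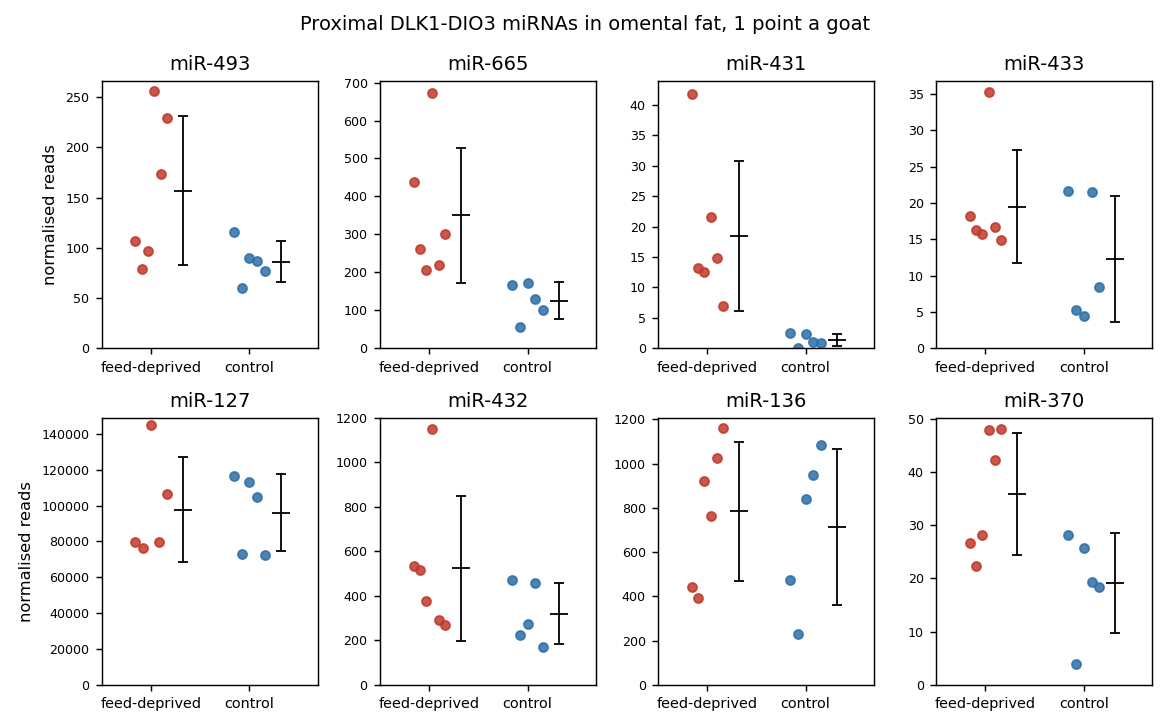
Normalised reads (vertical axes, linear from 0, a different scale in each panel) of the 8 miRNAs in feed-deprived and control goats, 1 point a goat, with the mean and SD as a black bar to the right. Groups do not overlap for miR-431 and miR-665, and overlap for the other 6; miR-127 has 5 feed-deprived points because 1 library does not list it.

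Upstream of RTL1, miR-665 stood at 207 to 673 normalised reads in feed-deprived goats, with a median of 281. In controls it stood at 167, 54.5, 170, 130 and 99.7 (replicates 1 to 5). Every feed-deprived goat lay above every control, and feed-deprived replicate 4 was the highest. Groups that did not overlap in this direction were seen for 1.67% of the 360 tested miRNAs. The means were 350 ± 179 (SD, n = 6) in feed-deprived goats and 124 ± 48.7 (SD, n = 5) in controls. limma put the log2 fold change at 1.46 ± 0.359 (SE), with an adjusted p of 0.074. This is a 2.75-fold higher level, with a 95% interval of 1.61 to 4.70. With DESeq2 on the recovered reads its adjusted p was 0.00266. In limma with library totals as the only scaling it was 0.0248, a setting that called 1.94% of all tested miRNAs higher. Of 11 alternative settings these 2 were the only ones that called miR-665. In the other 9 its adjusted p was 0.0511 to 0.0986, with 0.0972 in edgeR and the rest in limma. Leaving out 1 goat at a time left its log2 fold change between 1.19 and 1.60 and its limma adjusted p between 0.0718 and 0.162.

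miR-493, the first of the run and studied in human tumours as a suppressor of spread, had 79.1 to 256 normalised reads in feed-deprived goats, with a median of 140. Controls had 116, 59.8, 89.7, 87.3 and 77.1. Of the 6 feed-deprived goats 3 were above all controls and the other three, replicates 1 to 3, lay within the range of the controls. limma put its log2 fold change at 0.75 ± 0.318 (SE), with an adjusted p of 0.394. The spread was wider after feed deprivation, with a coefficient of variation of 47.3% in feed-deprived goats and 23.9% in controls, a difference that was not tested.

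Among the miRNAs of the RTL1 antisense transcript, miR-431 passed the threshold and the other four did not, and differences between them were not tested. In mouse muscle it is known for acting on Pax7, a factor of muscle stem cells. Feed-deprived replicates 1 to 6 had 41.9, 13.2, 12.5, 21.5, 14.8 and 6.98 normalised reads. Controls 1 to 5 had 2.55, 0, 2.24, 1.08 and 0.838. The lowest feed-deprived goat, at 6.98, thus lay above the highest control, at 2.55. In recovered reads these were 69, 13, 12, 22, 15 and 8 in feed-deprived goats, 139 in all, against 2, 0, 2, 1 and 1 in controls, 6 in all. The library with 0 reads allows up to 3 reads, or 3.99 normalised reads, counting error only.

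The ratio of the mean normalised reads of miR-431 in feed-deprived goats to that in controls was 13.8. limma on log2(value + 1), where the added 1 shrinks the change of a scarce miRNA, gave a log2 fold change of 2.99 ± 0.476 (SE) with an interval of 1.96 to 4.01 and an adjusted p of 0.0088. It had the smallest p of the 360 miRNAs. miR-431 reached the level needed for testing through the feed-deprived goats only: 5 of the 6 feed-deprived libraries and 0 of the 5 controls held the minimum of about 10 reads. When the low-read filter was applied anew without any 1 of feed-deprived replicates 1 to 5, miR-431 was no longer tested. With no low-read filter, limma called 2 of the 629 names, miR-431 among them with an adjusted p of 0.00485. With the 360 miRNAs kept, its limma adjusted p stayed between 0.00368 and 0.0409 over the 11 fits that leave out 1 goat.

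Leukocyte miRNAs were set beside miR-431. All 9 listed names of that group (miR-142, miR-146, miR-147, miR-150, miR-155, miR-223 and miR-342, with arms and letters) had positive log2 fold changes, beside 50.8% of all tested miRNAs, with a median of 0.40. Of the 9, 1 was called higher, miR-142-5p, beside 0.833% of all tested miRNAs, and the other 8 did not pass. Their summed level was 66271 to 100864 normalised reads in feed-deprived goats and 51904 to 77262 in controls, with 4 of 6 feed-deprived goats above all controls and no member at 0. Red-cell miRNAs, 3 of 3 with a positive log2 fold change (median 0.62) and 0 called, summed to 131837 to 348041 in feed-deprived goats and 116344 to 331505 in controls. Endothelial miRNAs, 3 of 3 with a negative log2 fold change (median -0.20) and 0 called, summed to 505460 to 614623 in feed-deprived goats and 535221 to 642256 in controls. The part of such cells in the level of miR-431 was not tested.

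miR-433, the neighbour of miR-431 within the antisense transcript, was about as scarce as miR-431 in feed-deprived goats but not in controls. It had 14.8 to 35.2 normalised reads in feed-deprived goats, with a median of 16.5. Controls had 21.7, 5.32, 4.49, 21.6 and 8.38. The controls fell apart into 2 high and 3 low goats, and only feed-deprived replicate 4 exceeded the high ones. limma put its log2 fold change at 0.82 ± 0.426 (SE), with an adjusted p of 0.486. Like miR-431 it met the filter through the feed-deprived goats, with 6 of 6 feed-deprived libraries and 2 of 5 controls at the minimum.

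miR-127 had 79727, 76521, 145195, 79935 and 106664 normalised reads in feed-deprived replicates 2 to 6. Controls 1 to 5 had 116671, 72991, 112941, 105024 and 72678. The groups overlapped almost fully, and 1 feed-deprived goat lay above all controls. limma put its log2 fold change at 0.0082 ± 0.211 (SE), with an adjusted p of 0.990 and an interval of -0.45 to 0.47. The sign turned with upper-quartile factors (-0.16) and without any 1 of 4 goats.

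miR-432 had 267 to 1152 normalised reads in feed-deprived goats, with a median of 448. Controls had 470, 226, 273, 457 and 168. Here 3 feed-deprived goats were above all controls, while feed-deprived replicates 3, 5 and 6 lay within the range of the controls. limma put the log2 fold change at 0.64 ± 0.385 (SE), with an adjusted p of 0.584. It was 0.37 without feed-deprived replicate 4, the highest library.

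miR-136, the last of the miRNAs inside RTL1, had 391 to 1161 normalised reads in feed-deprived goats, with a median of 844. Controls had 473, 231, 840, 948 and 1084. The medians were nearly equal, and 1 feed-deprived goat was above all controls. limma put its log2 fold change at 0.22 ± 0.414 (SE), with an adjusted p of 0.938. The 95% interval was 0.625- to 2.16-fold. Without control replicate 2, the lowest library, it was -0.14.

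miR-370, downstream of RTL1 and reported in human liver cells to act on CPT1A, the enzyme that admits fatty acids to the mitochondrion, had 22.3 to 48.0 normalised reads in feed-deprived goats, with a median of 35.2. Controls had 28.1, 3.99, 25.8, 19.4 and 18.4. All 6 feed-deprived goats were above the control median and 4 were above all controls. limma put its log2 fold change at 1.03 ± 0.428 (SE), with an adjusted p of 0.394. Without control replicate 2, which held 3 reads, it was 0.59. It met the filter with 6 of 6 feed-deprived libraries and 4 of 5 controls at the minimum.

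**Figure D2:**
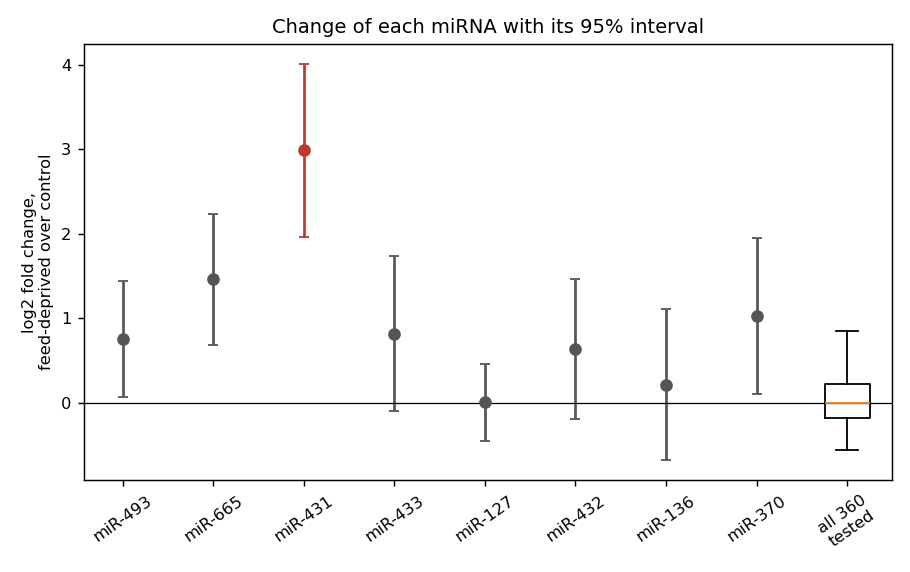
Log2 fold change of feed-deprived over control goats (vertical axis) for the 8 miRNAs in chromosome order, with miR-431 and miR-370 placed as in other mammals; points are limma estimates, bars their 95% intervals, and red marks adjusted p under 0.05. The box at the right gives the median and quartiles of all 360 tested miRNAs, with whiskers to the 5th and the 95th percentile; miR-431 at 2.99 and miR-665 at 1.46 lie above its upper whisker and miR-127 at 0.0082 lies near its median, 0.0040.

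The 7 members listed in every library had positive log2 fold changes in limma, with a median of 0.82. Positive values were seen for 50.8% of the 360 tested miRNAs, whose median was 0.0040. For miR-431, miR-433 and miR-370 the filter was met through the feed-deprived goats, so their sign is not independent of being tested. Under TMM factors, upper-quartile factors and library totals, 192, 104 and 265 of the 360 tested miRNAs had positive values. The 7 stayed positive under each. Together they took 0.0070% to 0.0133% of reads in feed-deprived goats and 0.0026% to 0.0078% in controls, and 5 of 6 feed-deprived goats were above all controls. In normalised reads they summed to 1302 to 2951 in feed-deprived goats and 581 to 1664 in controls, and on that scale 3 of 6 feed-deprived goats were above all controls. miR-127 alone took 0.380% to 0.649% of reads in feed-deprived goats and 0.323% to 0.531% in controls. Its log2 fold change, 0.0082 as deposited, was -0.16 with upper-quartile factors.

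Since the members are thought to share precursor transcripts, their ratios within a library were also taken, as differences of log2(value + 1). The scaling factor nearly cancels for the abundant members. It does not for miR-431 in controls, at 0 to 2.55 normalised reads, where the added 1 makes up much or all of the value and sets the size of the ratio. The log2 ratio of miR-431 to miR-127 was -12.46, -12.46, -12.65, -12.31 and -13.71 in feed-deprived replicates 2 to 6. In controls it was -15.00, -16.16, -15.09, -15.63 and -15.27. The groups did not overlap. The log2 ratio of miR-665 to miR-127 ran from -8.52 to -7.75 in feed-deprived goats and from -10.36 to -9.36 in controls, again with no overlap. That of miR-370 to miR-127 ran from -11.74 to -10.85 in feed-deprived goats and from -13.84 to -11.87 in controls, also without overlap. Ratios to miR-127 that did not overlap and were higher after feed deprivation were seen for 1.67% of the 360 miRNAs, 6 in number, and 3 of these were the members just named. Of them, miR-431 and miR-370 met the filter through the feed-deprived goats, so their place in this count is not independent of being tested. The levels of miR-431 and miR-665 did not overlap either, so their ratios to miR-127 add little to those levels. The ratios of miR-493, miR-433, miR-432 and miR-136 to miR-127 overlapped between the groups. No test was made of these ratios.

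**Figure D3:**
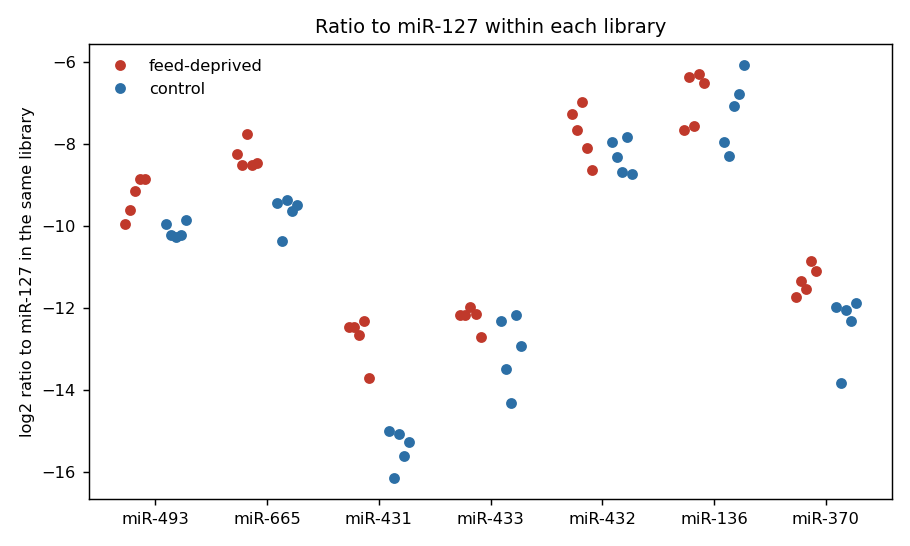
Log2 ratio to miR-127 within each library (vertical axis) for the other 7 miRNAs, in 5 feed-deprived goats (red, left) and 5 controls (blue, right); each point is a goat, and feed-deprived replicate 1 is left out since it does not list miR-127. The groups separate for miR-665, miR-431 and miR-370 and overlap for the rest.

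Set against miR-136, the most abundant member listed in all 11 libraries, miR-431 overlapped slightly: its log2 ratio was -7.19 to -3.37 in feed-deprived goats and -9.21 to -7.06 in controls, with 5 of 6 feed-deprived goats above all controls. The ratio of miR-432 to miR-136, neighbours in the gene table, ran from -2.12 to 0.59 in feed-deprived goats and from -2.68 to -0.01 in controls. The group means differed by 0.42, less than the range within either group. miR-431 set against miR-665 did not overlap, at -5.24 to -3.35 in feed-deprived goats and -5.98 to -5.57 in controls. Here too the added 1 makes up much or all of the control values of miR-431. How often such ratios to miR-665 do not overlap over all miRNAs was not computed. As a share of the recovered reads of the 7 members, with nothing added, miR-431 held 0.344% to 2.61% in feed-deprived goats and 0% to 0.200% in controls, while miR-432 held 13.2% to 39.8% in feed-deprived goats and 11.6% to 38.9% in controls.

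Between goats of the same group the members tended to move together, with exceptions. Over deviations of log2(value + 1) from the group mean, the 28 pairs of members had a median Pearson r of 0.54, from -0.24 to 0.92, and 26 were positive. All pairs of the 360 tested miRNAs had a median of -0.0038 and a 95th percentile of 0.63. The points are 11 goats, or 10 for pairs with miR-127, and they share library and scaling, so these values are a description. The closest pair was miR-127 and miR-665 (r = 0.92), of which miR-665 lies outside RTL1 in the gene table and miR-127 inside it. Within the antisense group of miR-431, miR-433, miR-127, miR-432 and miR-136, the 10 pairs had a median r of 0.45 and a maximum of 0.74, for miR-432 and miR-433. miR-432 and miR-136, next to each other in the gene table, had the lowest r of all, -0.24.

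In feed-deprived replicate 4 all 7 members listed in every library were above their group mean, by a median of 0.84 on the log2 scale. In control replicate 2 none of the 7 was above it, with a median deviation of -1.07. Control replicate 2 had the fewest reads of all libraries, 16974441, while feed-deprived replicate 4 had 22849222. Control replicate 1, with 17206278 reads, had 6 of the 7 above its group mean. Feed-deprived replicate 1, with the most reads, 25389788, had 3 of the 7 above. The part of depth was not tested. Feed-deprived replicate 4 and control replicate 2 both widen the difference between the groups. Without both, a setting chosen because of these values, the log2 fold change of miR-431 was 2.63 and its limma adjusted p 0.0812. That of miR-665 was then 0.98 (limma adjusted p = 0.159), and those of miR-136 and miR-127 were negative, at -0.16 and -0.24. No miRNA of the 360 was called in that limma fit, and 33 had an unadjusted p under 0.05.

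**Figure D4:**
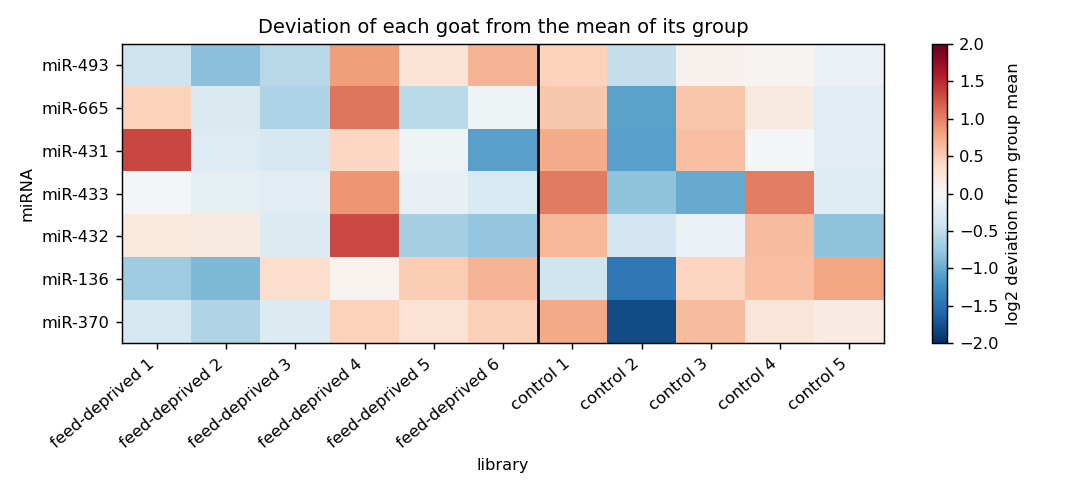
Deviation of log2(value + 1) from the mean of the goat's own group (colour, red above and blue below) for the 7 miRNAs listed in every library (rows, in chromosome order) in 6 feed-deprived and 5 control libraries (columns). Feed-deprived 4 is above its group mean in 7 of 7 rows and control 2 in 0 of 7, while the row of miR-136 runs apart from that of miR-432.

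The miRNAs whose deviations lay closest to those of miR-431 over the 11 libraries were miR-671 (r = 0.89), miR-484 and miR-2285cy (0.85 each), miR-212 (0.83) and miR-340 (0.82), none of them encoded in the region as listed here. In controls miR-431 had 0 to 2 reads, so its deviations there rest largely on counting error and the added 1. The 5 were picked as the highest r among many miRNAs over 11 libraries, which favours high values. For miR-136 the closest were miR-30e-5p and miR-545-3p (0.97 each), miR-30a-5p (0.96), miR-29b (0.95) and miR-12041 (0.90), picked in the same way. For miR-127 over 10 libraries, looked up after the values were seen, miR-665 came first, followed by miR-99b and miR-134 (0.89 each). The last of these belongs to the distal cluster of the region. miR-134 was also the closest to miR-665 (0.92), with the distal miR-1185 and miR-411c-5p among its 5 closest.

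The distal part of the region, the miR-379/410 cluster, was set beside the proximal members. Of 48 listed names 28 were tested, 24 with a positive log2 fold change and 4 with a negative one, with a median of 0.31. Positive values were seen for 50.8% of the 360 tested miRNAs. Of these 28, 1 was called, miR-541, beside 0.833% of all tested miRNAs. miR-541 had 19.3 to 108.6 normalised reads in feed-deprived goats and 2.66 to 12.9 in controls, with a log2 fold change of 2.41 and a limma adjusted p of 0.025. It too met the filter through the feed-deprived goats, with 6 of 6 feed-deprived libraries and 2 of 5 controls at the minimum. The same held for miR-487a, miR-376e, miR-323b-3p, miR-543, miR-376b and miR-1185, with 2 to 4 of 5 controls at the minimum. The signs of all these distal miRNAs are therefore not independent of being tested. miR-543 followed by p at 1.34 (limma adjusted p = 0.093) and miR-410 at 0.75 (limma adjusted p = 0.268). The most abundant distal members had small values, as miR-127 had among the proximal ones: miR-411a was at 0.23, miR-379 at 0.09 and miR-380-3p at 0.11, with limma adjusted p-values of 0.737 to 0.984. Scaling moved the distal count of positive values and that over all 360 tested miRNAs in the same direction. Under upper-quartile factors the distal count fell to 19 of 28, beside 104 of the 360. Under library totals it rose to 27 of 28, beside 265 of the 360. Whether the proximal and distal members differed was not tested.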

How the data were processed

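Per the labels' protocols, total RNA of omental fat was made into libraries with the TruSeq Small RNA kit, without molecular identifiers that the labels mention, and read as single 50-base reads. Counting limits therefore cover counting error only. The authors deposited 1 normalised signal per mature miRNA under bovine names. Trimming, aligner, miRNA database and scaling tool: not given in the sources used here. In every library 100% of the non-zero values of the deposited signal were whole multiples of the smallest one, within 0.001 read, so whole reads were recovered by division.

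The log2(value + 1) signal was compared with limma 3.58.1 in R 4.3.3, with variance trend and robust moderation, two-sided. Of 629 names listed in every library, 360 passed the filterByExpr function of edgeR (minimum count 10). P-values were adjusted over all 360 by Benjamini-Hochberg, threshold 0.05. miR-127 came from the same fit over 366 names, its missing library left missing. edgeR 4.0.16 and DESeq2 1.42.0 on the recovered reads, other scalings, pseudocounts and filters, and leaving out each goat were the alternatives. The fits were tested on simulated data. Every listed member was named; of the distal miRNAs the 3 smallest p-values and the 3 highest means; and for miR-431 and miR-136 the 5 closest miRNAs. Members and lists were chosen with earlier results of these data known. Groups follow the labels, which give no batch or pairing; replicate numbers follow accession order and only name goats. All 8 listed members passed the filter, so the planned exact test for members below it was not needed.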

Additional observations from a re-analysis of the deposited data

Results flagged for a closer look

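Among 18 sets of values examined, 2 held 1 goat that stood well apart from its group. Chance alone gives about 1 in 20 only for independent sets with a normal spread. These sets share goats and include a sum of members, so that rate is no yardstick here. In both cases the goat was feed-deprived replicate 4. It had 1152 normalised reads of miR-432, against 267 to 533 in the other 5 feed-deprived goats. It also had 35.2 normalised reads of miR-433, against 14.8 to 18.2 in the other 5. Without that goat the log2 fold change of miR-432 was 0.37 and that of miR-433 was 0.64.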

How the results depend on the processing

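No paired analysis was made, since the labels give no pairing and each goat gave 1 library. The limma fit called 3 of 360 miRNAs, 1 of them a member. It called 8 with 2 members under library totals, 10 with 2 members in DESeq2, and 0 with 0 members when a group mean of at least 10 CPM was required (23 at an unadjusted p under 0.05), a filter that removes miR-431. Without both feed-deprived 4 and control 2 it called 0 and 0. Leaving out 1 goat gave 1 (without feed-deprived replicates 1, 4 or 5 or control replicates 2, 3 or 5) to 5 calls (without feed-deprived replicate 6) and 1 member each time. With the filter rerun these were 0 to 5 calls and 0 to 1 members. Rerunning the filter and leaving out both goats were chosen after seeing the data. Over single goats left out, miR-127 ran from -0.15 to 0.086, miR-136 from -0.14 to 0.42, miR-370 from 0.59 to 1.22, miR-433 from 0.57 to 1.08, miR-493 from 0.59 to 0.92 and miR-431 from 2.71 to 3.20. miR-127 was -0.16 with upper-quartile factors and, without both goats, -0.24, where miR-136 was -0.16. The pseudocount moved miR-431 most, to 1.77 at 5. Upper-quartile factors put the median of all miRNAs at -0.17 and library totals at 0.16, against 0.0040 as deposited. Depth limits miR-431, miR-433 and miR-370, which had 0 to 69, 4 to 36 and 3 to 55 reads a library.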
